A study of Mus musculus with 9 samples.

Results

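Chromatin accessibility was compared between NanogKO:Esrrb:Nanog and NanogKO mouse embryonic stem cells (ESC) over every counted region of the genome outside chromosome Y, which was 157452 of the 157497 regions in the series. ATAC-seq was the assay: a transposase cuts open DNA and tags it for sequencing, so that reads pile up where chromatin is accessible. Each group had 3 libraries. NanogKO cells (code 44C6 in the titles) lack Nanog by their label and have the cell line name N{delta}. NanogKO:Esrrb:Nanog cells (code 44JN) carry the same knockout with Esrrb and Nanog both added, and have the line name N{delta}:cE:iN. That line name is shared with 3 NanogKO:Esrrb libraries (code 44J), whose values are set beside the comparison. Culture medium held 10% serum and 1000 U/ml leukaemia inhibitory factor (LIF), there was no further treatment, and PECAM positive, PDGFRA negative cells were sorted. The 2 groups therefore differ in the line name as well as in Esrrb and Nanog, and these cannot be told apart. The labels name neither the promoters of the added genes, nor the deleted part of Nanog, nor the clones, nor whether replicates were separate cultures, so p-values measure only the spread between these libraries. The series design counts 12 samples, of which 9 were analysed here.

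NANOG is a homeodomain transcription factor and ESRRB an orphan nuclear receptor. Both belong to the network that holds ESC in self-renewal, in which Esrrb is a known target of NANOG, and both bind mainly at enhancers shared with OCT4, SOX2 and Krüppel-like factors. LIF acts through its receptor, JAK kinases and STAT3, while FGF signalling through ERK pushes cells towards differentiation. Open chromatin at a start marks most active and many poised genes, whereas enhancers far from starts are opened and closed more readily between cell states.

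Values are CPM, read counts relative to the library's total, scaled between libraries with TMM factors. A region is called higher or lower where the adjusted p of edgeR's quasi-likelihood test, corrected over all regions, is under 0.05, and every adjusted p below comes from that fit. Errors after ± are SD over 3 libraries, and those after a log2 fold change are its standard error (SE). The fold changes run from NanogKO to NanogKO:Esrrb:Nanog. Total counts were 41334847 to 52871542 per NanogKO library and 35545030 to 58520948 per NanogKO:Esrrb:Nanog library. On the first principal component of all 9 libraries (63.55% of the variance) NanogKO lay at -209 to -188 and NanogKO:Esrrb:Nanog at 136 to 180, with NanogKO:Esrrb between at 24.9 to 59.9. NanogKO:Esrrb:Nanog replicate 3 stood apart from the other libraries of its group on the second component (15.52%), at 5.32 against 87.4 and 101.2.

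The windows of 6 gene starts are shown for the 3 largest rises and the 3 largest falls among the named starts. Each line holds the 250 bases before and the 50 after the start in RefSeq's GRCm38.p6 (the assembly of mm10), read 5′ to 3′ on the gene's strand, with capitals for matches to the motifs spelled out further down.
Gm40847 (rose, chr12:19066133-19066432, plus strand): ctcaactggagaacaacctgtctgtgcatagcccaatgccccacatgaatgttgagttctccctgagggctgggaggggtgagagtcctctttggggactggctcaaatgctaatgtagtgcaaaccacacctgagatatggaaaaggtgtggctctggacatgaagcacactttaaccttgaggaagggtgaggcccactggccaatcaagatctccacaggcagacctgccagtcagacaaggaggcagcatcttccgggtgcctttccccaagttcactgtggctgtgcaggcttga
Notch4 (rose, chr17:34564045-34564344, plus strand): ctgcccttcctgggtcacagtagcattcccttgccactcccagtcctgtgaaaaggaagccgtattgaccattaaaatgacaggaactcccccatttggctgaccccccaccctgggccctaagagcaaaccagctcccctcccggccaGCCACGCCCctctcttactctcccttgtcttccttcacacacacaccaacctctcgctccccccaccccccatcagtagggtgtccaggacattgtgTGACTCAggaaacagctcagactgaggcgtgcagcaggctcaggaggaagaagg
Ppp1r14d (rose, chr2:119229816-119230115, minus strand): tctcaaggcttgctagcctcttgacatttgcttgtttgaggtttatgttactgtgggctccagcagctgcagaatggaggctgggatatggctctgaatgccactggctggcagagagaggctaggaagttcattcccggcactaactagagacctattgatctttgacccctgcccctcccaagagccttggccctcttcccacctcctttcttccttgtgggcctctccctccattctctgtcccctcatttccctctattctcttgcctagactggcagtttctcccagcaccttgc
Upk3bl (fell, chr5:136057017-136057316, plus strand): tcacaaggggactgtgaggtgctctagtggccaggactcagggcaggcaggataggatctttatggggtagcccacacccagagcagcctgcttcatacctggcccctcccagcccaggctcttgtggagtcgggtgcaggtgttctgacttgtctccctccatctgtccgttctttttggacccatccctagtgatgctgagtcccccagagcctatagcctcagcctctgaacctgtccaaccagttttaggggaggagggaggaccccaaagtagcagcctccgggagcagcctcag
Clcn5 (fell, chrX:7188665-7188964, minus strand): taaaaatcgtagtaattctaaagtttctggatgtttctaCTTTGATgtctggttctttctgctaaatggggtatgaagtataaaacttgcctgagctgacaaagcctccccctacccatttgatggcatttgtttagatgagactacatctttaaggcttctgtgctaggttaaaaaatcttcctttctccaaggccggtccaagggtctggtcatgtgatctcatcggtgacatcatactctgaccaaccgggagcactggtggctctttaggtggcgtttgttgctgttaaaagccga
Serpinf1 (fell, chr11:75422574-75422873, minus strand): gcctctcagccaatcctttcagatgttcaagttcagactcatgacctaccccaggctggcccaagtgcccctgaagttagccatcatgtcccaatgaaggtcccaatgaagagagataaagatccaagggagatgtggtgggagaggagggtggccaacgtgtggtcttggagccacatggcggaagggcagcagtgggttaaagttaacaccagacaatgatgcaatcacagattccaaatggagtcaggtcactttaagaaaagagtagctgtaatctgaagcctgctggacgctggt
The Notch4 window holds the C form of the Krüppel-like factor box on its minus strand and an AP-1 match, and the Clcn5 window a TCF/LEF match. The windows of Gm40847, Ppp1r14d, Upk3bl and Serpinf1 hold none of the motifs searched. Of the 4 named starts not shown, Tm4sf5 (rose) holds the T form of the Krüppel-like factor box, Tbc1d24 (rose) the ESRRB core, Gm40035 (fell) the ESRRB core and the POU octamer, and Fam178b (fell) none.

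Differences between the groups were widespread and went both ways. Of 157394 regions tested, 77541 were called (49.3%), with 39147 higher (24.9%) and 38394 lower (24.4%). A change of more than 2-fold was called in 17840 higher (11.3%) and 17369 lower regions (11%). The falls reached further than the rises: 961 regions were more than 8-fold lower (0.611%) against 434 more than 8-fold higher (0.276%). Called-higher regions had a median of 2.24 CPM in NanogKO and 4.92 in NanogKO:Esrrb:Nanog, and called-lower regions of 3.13 and 1.43. The median log2 fold change of all tested regions was -0.01. TMM scaling sets the bulk of regions near 0, so this median and the even split largely follow from it. With scaling to total counts, 33109 regions were higher and 45270 lower. All 3 NanogKO:Esrrb:Nanog libraries lay above all 3 NanogKO libraries in 42096 regions (26.7%) and below them in 43736 (27.8%). These are bulk libraries, so fewer cells with a region open and less opening per cell cannot be told apart.

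At the Nanog gene (chr6:122707489-122714633), 5 regions were found within 10 kb or inside, and the libraries of the 2 groups separated at 3 of them. Since the deleted part is not named, none of them checks the knockout label. Whether reads of the added Nanog and Esrrb copies count towards regions of either gene was not tested. The region inside the gene (chr6:122713174-122713525) was at 0.902, 0.937 and 1.56 CPM in NanogKO and at 4.25, 4.49 and 6.17 in NanogKO:Esrrb:Nanog, a rise of 2.13 ± 0.22 (log2, SE). NanogKO:Esrrb already stood at 3.02 to 4.02 CPM there. The region 4347 bp outside the gene (chr6:122702151-122703142) rose from 46.6 ± 2.9 to 68.5 ± 13 CPM (adjusted p = 4.8e-04). In contrast, the region 865 bp beyond the other end (chr6:122715498-122716465) fell from 15.3 ± 0.58 to 8.59 ± 1.5 CPM (adjusted p = 8.5e-06). The region 208 bp from the gene (chr6:122706941-122707281) had 7.98 ± 0.54 and 9.21 ± 0.84 CPM, with overlapping libraries and an adjusted p of 0.21.

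Esrrb (chr12:86361117-86521628) opened over most of its length. Of 31 regions in the gene or within 10 kb, 25 were called higher and 1 lower, against 24.9% and 24.4% of all tested regions. Its strongest call (chr12:86503894-86504645) was at 3.76, 4.24 and 5.29 CPM in NanogKO and at 38.6, 31.6 and 37.8 in NanogKO:Esrrb:Nanog, 8.11-fold higher with no overlap. A neighbour (chr12:86501640-86502386) had the highest level of the locus, 61.9 ± 6.5 CPM against 13.7 ± 2.5. The start itself (chr12:86421350-86422863) was at 18.2, 19.1 and 17.3 CPM in NanogKO and at 21.1, 22.5 and 21.3 in NanogKO:Esrrb:Nanog. These libraries do not overlap, but the difference of 0.25 ± 0.11 missed the threshold (adjusted p = 0.066), which DESeq2 and a fit with a replicate term passed. The 1 fall was at chr12:86429379-86429562, from 2.86 ± 0.58 to 0.616 ± 0.033 CPM (adjusted p = 1.9e-07). One call within the gene, at chr12:86433195-86433633, was weak: 16.5 ± 1.8 CPM against 20.7 ± 3.2, with overlapping libraries and an adjusted p of 0.032. It was lost without any one of 4 libraries (NanogKO replicates 1 and 2, NanogKO:Esrrb:Nanog replicates 1 and 2) and under 3 other scalings. The call 3263 bp outside the gene (chr12:86524891-86525175, 0.72 ± 0.22) was lost without NanogKO:Esrrb:Nanog replicate 3.

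Position in the genome went with how much regions moved. Regions at gene starts were the most accessible, with a median of 22.3 CPM, and moved least: of 10816, 2072 were higher (19.2%) and 1147 lower (10.6%), and only 107 and 188 moved by more than 2-fold. Inside genes away from their ends, 26.9% of 66962 regions were higher and 23.9% lower. Outside genes, falls took the larger share, with 24.7% higher and 27.1% lower of 42163 regions within 50 kb, and 24.3% higher and 32.0% lower of 23468 regions farther away. The count of higher starts depended on single libraries, at 3324 without NanogKO:Esrrb:Nanog replicate 3, 1287 without replicate 1, 1379 without replicate 2 and 1337 without NanogKO replicate 2. The count of lower starts rose to 2427 with loess scaling. Scaling to total counts turned the balance at starts (1395 higher, 2007 lower), at gene ends (2279 and 3094) and elsewhere in genes (15346 and 18568), so that falls outnumbered rises in every class.

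**Figure D1:**
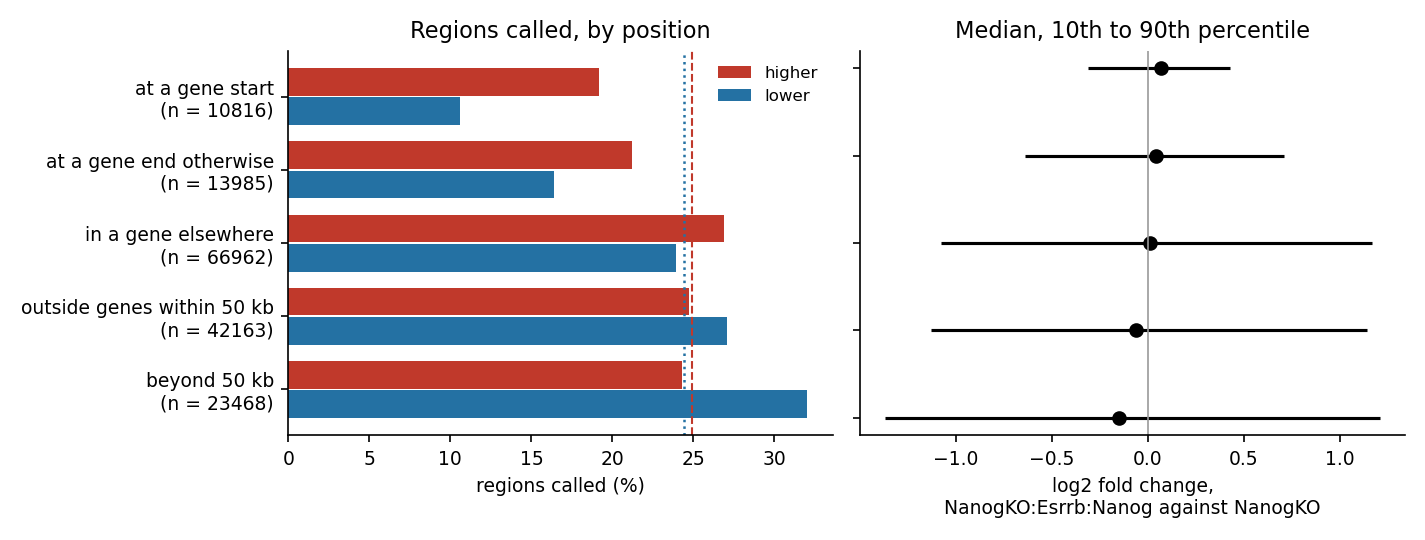
Left, the share of tested regions called higher (red) and lower (blue) by position, with the shares of all tested regions as dashed (24.9%) and dotted (24.4%) lines. Right, the median log2 fold change (point) and its 10th to 90th percentile (line). The line for gene starts is the shortest, from -0.31 to 0.43, and that for regions beyond 50 kb of a gene the longest, from -1.37 to 1.21.

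At gene starts, 10 regions carried the largest changes without overlap between the groups, among starts whose mean abundance over all libraries reached the median of all tested regions (not of starts). Notch4, a receptor of the NOTCH family, was at 3.78, 3.49 and 4.44 CPM in NanogKO and at 30.9, 27.6 and 20.3 in NanogKO:Esrrb:Nanog (chr17:34563954-34564550, 2.75 ± 0.15). Ppp1r14d, an inhibitor of protein phosphatase, was at 4.51, 3.97 and 3.87 CPM against 25.1, 24.2 and 26.7 (chr2:119229572-119230543, 2.62 ± 0.14). At both, the lowest NanogKO:Esrrb:Nanog library stood several fold above the highest NanogKO library. Tm4sf5, a tetraspan membrane protein, rose 5.78-fold from 2.2 ± 0.25 to 12.7 ± 1.1 CPM (chr11:70504855-70505405). Tbc1d24 rose 5.39-fold from 4.32 ± 0.38 to 23.3 ± 3.4 CPM (chr17:24199440-24200157). The fifth, the predicted gene Gm40847, rose 8.54-fold from 0.813 ± 0.27 to 6.84 ± 0.31 CPM (chr12:19066112-19066425). In all 5 the NanogKO:Esrrb mean lay between the other 2 group means, for example 10.1 ± 0.41 CPM at Notch4.

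The 5 falls at starts were as steep. The start of Upk3bl, a uroplakin-like gene, was at 9.58, 8.36 and 9.91 CPM in NanogKO and at 0.664, 0.704 and 0.916 in NanogKO:Esrrb:Nanog, a log2 fold change of -3.59 ± 0.2 (SE) (chr5:136057074-136057404). It was just as low in NanogKO:Esrrb, at 0.586 to 0.765 CPM. A start of Clcn5, which encodes an endosomal chloride and proton exchanger, was at 8.17, 9.99 and 8.98 CPM against 0.912, 0.411 and 1.28 (chrX:7188283-7188777, -3.31 ± 0.25). Serpinf1, which encodes a secreted serpin, was 7.23-fold lower, at 17.7 ± 0.53 CPM against 2.47 ± 0.44 (chr11:75421770-75423091). Fam178b fell 6.09-fold from 15.9 ± 0.42 to 2.6 ± 0.19 CPM (chr1:36592852-36593571), and the predicted gene Gm40035 6.1-fold from 20.9 ± 2.2 to 3.37 ± 0.79 (chr2:181952876-181953590). Adjusted p at the 10 starts ranged from 5.8e-14 to 3.2e-11.

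Starts called in opposite directions had different base composition as a description of their windows. The composition and the motif shares below use the classes of the main fit only. As given above, the sizes of these classes depended on single libraries and on scaling. RefSeq windows of 300 bases were read for 21045 starts of 17274 genes, and 2414 of them lay at regions called higher and 1260 at regions called lower. The median GC content was 62.3% at higher and 55.7% at lower windows, against 61.7% where the region was not called. The ratio of observed to expected CpG was 0.762, 0.465 and 0.776. Windows at changes of more than 2-fold were poor in CpG either way, with ratios of 0.271 for 115 higher and 0.264 for 204 lower windows.

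Motifs were searched by their exact letters on both strands, as a description of these windows. The POU octamer (ATGCAAAT) was in 3.41% of lower and 1.28% of higher windows, in 1.2% of those not called and in 1.68% of all. The Krüppel-like factor box with T (GGGTGTGGC) ran the other way, in 0.635% of lower and 1.95% of higher windows, 1.49% of those not called and 1.52% of all. Its form with C (GGGCGTGGC) was in 3.02% of lower and 6.55% of higher windows, but in 6.0% where the region was not called, and 0.917% of windows without a region brought the share of all to 3.88%. AP-1 letters (TGACTCA) were in 13 of the 115 windows that rose more than 2-fold (11.3%), in 13 of the 204 that fell as far (6.37%), in 4.27% of all higher, 3.81% of all lower and 4.69% of all windows. The ESRRB extended site (TCAAGGTCA) was rare, in 0.207% of higher, 0.317% of lower, 0.165% of not-called and 0.337% of all windows. Its core (AAGGTCA), which lies within it, was in 2.9%, 3.33%, 2.82% and 4.06%. Windows without a region, 5.86% of which held the core, raised its share of all. Past 2-fold, the core was in 7 of 115 higher (6.09%) and 11 of 204 lower windows (5.39%). STAT letters (TTCCNGGAA) were in 1.2% of higher, 0.952% of lower and 1.18% of all windows, and TCF/LEF letters (CTTTGAT) in 2.15%, 2.78% and 3.25%. In not-called windows, AP-1, STAT and TCF/LEF letters were in 3.05%, 1.3% and 2.38%. The composite OCT4-SOX2 motif, which holds the octamer, was in 0 windows.

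The naive pluripotency network, the transcription factors and markers of the ground state, had the largest share of rises among 16 gene lists. Of 380 regions in or within 50 kb of its 22 genes, 209 were higher (55.0%) and 46 lower (12.1%), against 24.9% and 24.4% of all tested regions, with a median log2 fold change of 0.57. More regions rose than fell at 20 of the 22 genes. The T-box factor Tbx3 had 21 higher and 0 lower of 30 regions, Zfp42 (REX1) 21 and 1 of 29, Tfcp2l1 13 and 2 of 19, and Fgf4, the ligand that drives ERK in ESC, 8 and 0 of 8. Without the regions of Esrrb and Nanog, 54.5% were higher. Dppa3, a maternal factor that is also a germline marker, went the other way with 3 higher and 7 lower of 13. Its fall of smallest p was at chr6:122654301-122654471, at 0.61, 0.496 and 0.507 CPM in NanogKO against 0.166, 0.088 and 0.156. These were low counts, 25, 27 and 25 against 8, 3 and 9. There NanogKO:Esrrb stayed near NanogKO at 0.517 to 0.586 CPM. Pecam1, the gene of the marker used to select cells in the sort, had 8 higher and 10 lower of 30.

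**Figure D2:**
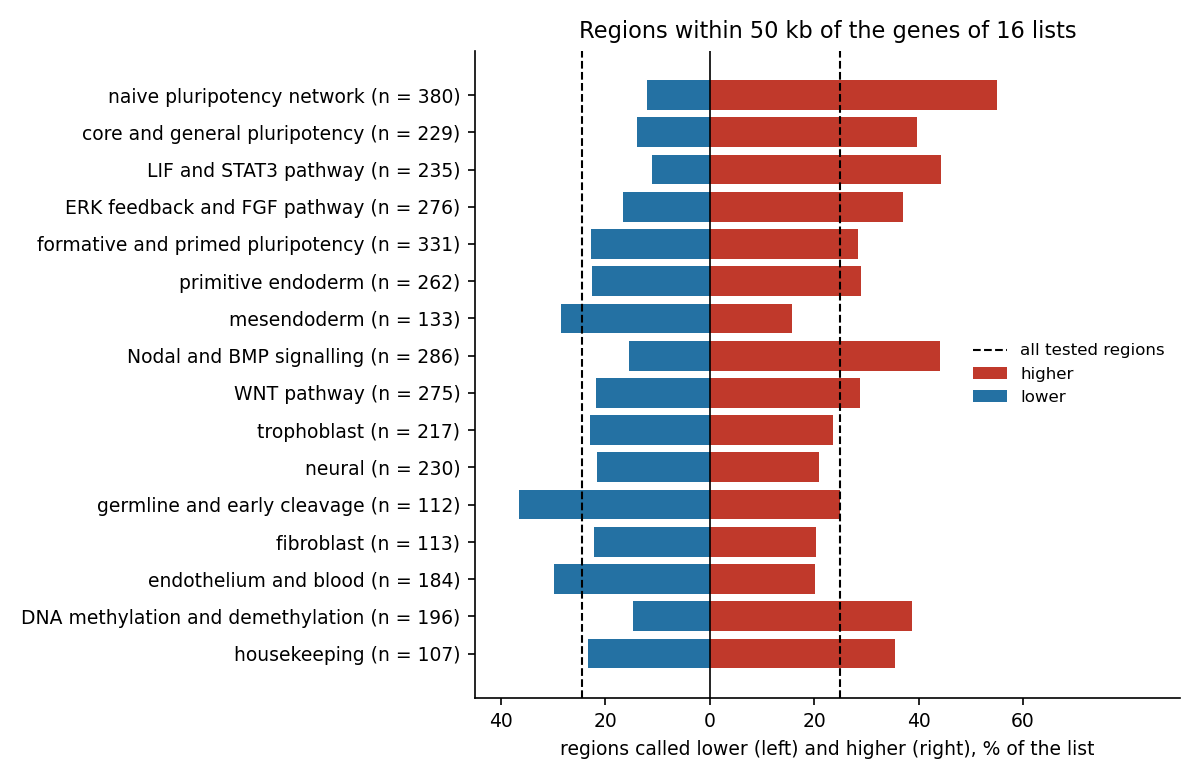
Share of the regions within 50 kb of each list's genes that were called lower (blue, left) and higher (red, right), in percent of the list. Dashed lines mark the shares of all tested regions, 24.4% lower and 24.9% higher. The naive list reaches furthest right at 55.0% and the germline list furthest left at 36.6%.

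Core and general pluripotency genes, shared by naive and primed cells, had rises at most members. Of 229 regions, 91 were higher (39.7%) and 32 lower (14%), with a median of 0.23, and rises outnumbered falls at 12 of 17 genes. All tested regions had 24.9% higher and 24.4% lower. The housekeeping list, kept for comparison, had 35.5% and 23.4%, so its share of rises was not far below. Housekeeping shares depended on single libraries, with 27.1% to 39.3% higher and 16.8% to 29.0% lower when each was left out in turn. Sall1, a zinc-finger factor, led with 23 higher and 0 lower of 35. Its strongest region (chr8:88992324-88992618) was at 1.2, 1.05 and 0.851 CPM in NanogKO and 6.66, 6.95 and 6.61 in NanogKO:Esrrb:Nanog, with 2.62 to 3.84 in NanogKO:Esrrb. Pou5f1, which encodes OCT4, had 6 higher and 0 lower of 8, and Sox2 4 and 5 of 26. Lin28a, whose protein keeps let-7 microRNAs from maturing, had 0 higher and 2 lower of 8. Its region at chr4:134006906-134007144 was at 11.1, 10.3 and 10.5 CPM in NanogKO and at 0.456, 0.469 and 1.04 in NanogKO:Esrrb:Nanog, a log2 fold change of -3.96 ± 0.25 (SE).

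LIF and STAT3 pathway genes gained regions at the receptors. Of 235 regions, 104 were higher (44.3%) and 26 lower (11.1%), with a median of 0.38. Housekeeping genes had 35.5% and 23.4%, and all tested regions 24.9% and 24.4%. Among receptor subunits, Lifr had 18 higher and 2 lower of 31 regions, Il6st (gp130) 11 and 0 of 20, Il6ra 12 and 0 of 13, and Osmr 6 and 0 of 13. The named Lifr region (chr15:7081754-7082365) rose from 8.93, 9.17 and 9.99 CPM to 20.8, 24.2 and 22.8, a 2.41-fold rise. Of the feedback inhibitors, Socs3 had 11 higher and 0 lower of 19, and Socs2 3 and 6 of 14. Of the kinases, Jak1 had 5 higher and 1 lower of 11 and Jak2 1 and 5 of 13. At Jak2 (chr19:29234127-29234308) the 3 libraries fell from 2.29, 2.5 and 2.05 CPM to 0.581, 0.469 and 0.294.

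ERK and FGF genes moved both ways. Of 276 regions, 102 were higher (37.0%) and 46 lower (16.7%), with a median of 0.23. That share of rises was near the 35.5% of housekeeping genes, of which 23.4% were lower. Scaling to total counts set the lists further apart. It gave 33.3% higher and 19.9% lower for ERK and FGF genes, against 27.1% and 30.8% for housekeeping genes. All tested regions had 24.9% and 24.4%. The inhibitors Spry4 (12 higher, 0 lower of 21), Spred2 (17 and 5 of 41), Spry2 (6 and 0 of 17) and Dusp6 (7 and 0 of 13) had more rises, whereas Dusp4 (2 and 5 of 12) and Dusp5 (3 and 4 of 10) had more falls and Spry1 had 3 of each in 11. More rises also lay at the ETS factor genes Etv4 (8 and 0 of 13) and Etv5 (14 and 3 of 27). The Spred2 region at chr11:19926094-19926494 rose from 7.68, 6.54 and 5.84 CPM to 20.9, 19.4 and 17.9. Falls prevailed at the receptor gene Fgfr2 (1 and 11 of 16) and at the ligand genes Fgf5 (0 and 4 of 7) and Fgf8 (1 and 4 of 8). Inside Fgfr2 (chr7:130176910-130177405), NanogKO had 8.17, 11 and 6.26 CPM and NanogKO:Esrrb:Nanog 0.829, 0.645 and 0.605, a log2 fold change of -3.61 ± 0.23 (SE). NanogKO:Esrrb was already at 0.703 to 0.974 CPM there.

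Nodal and BMP signalling genes had 126 higher (44.1%) and 44 lower (15.4%) of 286 regions, with a median of 0.35. Housekeeping genes had 35.5% and 23.4%, and all tested regions 24.9% and 24.4%. Rises lay at the ligand gene Bmp4 (15 higher, 0 lower of 18), at Pcsk6 (25 and 0 of 30), whose convertase processes NODAL, and at the inhibitor Smad7 (23 and 1 of 26). The BMP targets Id1 (6 and 0 of 9) and Id3 (8 and 0 of 15) went the same way, while Id2 had 1 and 4 of 12. The named Pcsk6 region (chr7:65845047-65845956) rose from 2.05, 1.52 and 2.03 CPM to 15.5, 13.8 and 15.1, which NanogKO:Esrrb, at 13.2 to 18.3, had already reached. Skil, a co-repressor of SMADs, had 2 higher and 11 lower of 17. Its region at chr3:31077711-31078587 fell from 11.5, 13.7 and 10.6 CPM to 1.16, 1.47 and 1.8. The BMP receptor gene Bmpr1a had 0 higher and 6 lower of 13.

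DNA methylation and demethylation genes had 76 higher (38.8%) and 29 lower (14.8%) of 196 regions, with a median of 0.19. Over all tested regions these shares were 24.9% and 24.4%. The TET dioxygenases, which oxidise methylcytosine, did not move alike: Tet1 had 21 higher and 0 lower of 26, Tet2 14 and 4 of 26, and Tet3 0 and 3 of 13. A region 5204 bp from Tet1 (chr10:62892673-62893152) rose from 8.56, 7.27 and 7.93 CPM to 25.7, 23.9 and 23.7. The de novo methyltransferase gene Dnmt3a had 5 higher and 10 lower of 32. Just outside it (chr12:3914584-3914854), levels fell from 2.59, 2.61 and 2.37 CPM to 0.477, 0.91 and 0.692. Housekeeping genes, listed for comparison, had 38 higher (35.5%) and 25 lower (23.4%) of 107 regions and a median of 0.11.

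Formative and primed pluripotency genes, which mark cells leaving the naive state, moved both ways. Of 331 regions, 94 were higher (28.4%) and 75 lower (22.7%), close to the 24.9% and 24.4% of all tested regions, with a median of 0.05. Foxd3, a forkhead factor, had 17 higher and 0 lower of 20. A region 18926 bp from it (chr4:99636857-99637373) went from 1.02, 1.29 and 1.52 CPM to 13.8, 12.1 and 15.4, a 10.7-fold rise. Grhl2, a regulator of epithelial genes, had 4 higher and 19 lower of 35. At chr15:37347338-37347932 inside Grhl2, 3.9, 3.8 and 4.36 CPM in NanogKO stood against 0.684, 0.352 and 0.761. Lef1, a WNT effector, had 2 higher and 10 lower of 31, and Tcf15 10 and 1 of 13.

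WNT pathway genes were near the background of 24.9% higher and 24.4% lower as well. They had 79 higher (28.7%) and 60 lower (21.8%) of 275 and a median of 0.04. Tcf7l1, the repressor among TCF factors, had 18 higher and 7 lower of 47, and rose from 1.18 ± 0.11 to 3.87 ± 0.13 CPM at chr6:72622977-72623245. Near Lef1 (chr3:131065004-131065554), the level fell from 8.87 ± 0.39 to 3.42 ± 0.35 CPM. The WNT receptor-type gene Lgr4 had 9 higher and 0 lower of 15, whereas Znrf3, which removes WNT receptors, had 2 and 8 of 21.

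Lists of other lineages had shares of rises near or under the 24.9% of all tested regions, of which 24.4% were lower. In primitive endoderm, 76 of 262 regions were higher (29.0%) and 59 lower (22.5%), with all 16 regions of the laminin gene Lama1 higher and 8 of 17 at Lamb1 lower. The Lama1 region at chr17:67681176-67681362 went from 0.0732, 0.312 and 0.182 CPM to 3.09, 3.81 and 2.99. Its NanogKO counts were low, at 3, 17 and 9. The Lamb1 region at chr12:31238939-31239560 went from 12.6, 13.4 and 13.2 CPM to 2.41, 1.88 and 2.97. The endoderm regulators Gata6 (2 higher, 5 lower of 16), Sox17 (0 and 3 of 5) and Foxa2 (0 and 4 of 10) had more falls. Pdgfra, the gene of the marker selected against in the sort, had 7 higher and 3 lower of 18.

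Mesendoderm genes, those of early mesoderm and endoderm, had the smallest share of rises, 21 of 133 regions (15.8%), with 38 lower (28.6%). Against these stood 24.9% and 24.4% of all tested regions. Msgn1, a factor of presomitic mesoderm, had 0 higher and 9 lower of 11, and fell from 3.65 ± 0.23 to 0.531 ± 0.36 CPM at chr12:11223164-11223474. That log2 fold change was -2.71 ± 0.32 (SE), and -3.52 without NanogKO:Esrrb:Nanog replicate 3. Hand1 had 6 higher and 1 lower of 20, and rose from 11.8 ± 1.1 to 28.4 ± 1.7 CPM at chr11:57868700-57869421. Brachyury (T) had 0 higher and 3 lower of 7.

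The germline and early cleavage list had the largest share of falls, 41 of 112 regions (36.6%), with 28 higher (25%) and a median of -0.16. Its share of rises was that of all tested regions (24.9%), of which 24.4% were lower. Prdm1 (BLIMP1), a germline specifier, supplied 15 of the falls in the list, with 2 rises of 26 regions. Its region at chr10:44488865-44489313 was at 12.4, 17.8 and 11 CPM in NanogKO against 1.62, 0.88 and 1.35. Kit, a receptor of germ cells, had 4 higher and 1 lower of 6, and rose 2.34-fold at chr5:75599737-75600332. Zscan4c had no tested region within 50 kb.

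Trophoblast genes had 51 higher (23.5%) and 50 lower (23.0%) of 217, near the 24.9% and 24.4% of all tested regions. Neural genes had 48 (20.9%) and 50 (21.7%) of 230. Among them Tead4 rose from 3.58 ± 0.76 to 8.86 ± 1.1 CPM (chr6:128280583-128281138), and the adhesion gene Ncam1 from 3.46 ± 0.31 to 18.3 ± 2.7 (chr9:49751332-49751914). Meis2, a homeobox gene, fell from 3.63 ± 1.1 to 0.229 ± 0.1 CPM (chr2:115913072-115913320). Fibroblast genes had 23 higher (20.4%) and 25 lower (22.1%) of 113, and endothelium and blood genes 37 (20.1%) and 55 (29.9%) of 184. Col1a2, a fibrillar collagen gene, had 0 higher and 9 lower of 11, and Fn1 (fibronectin) 7 and 3 of 22. Fli1, an ETS factor of blood and vessels, had 0 higher and 8 lower of 14, and Tie1 5 and 0 of 10. The neural shares depended on single libraries: 14.8% to 20.4% were higher and 14.3% to 21.7% lower when each library was left out in turn.

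**Figure D3:**
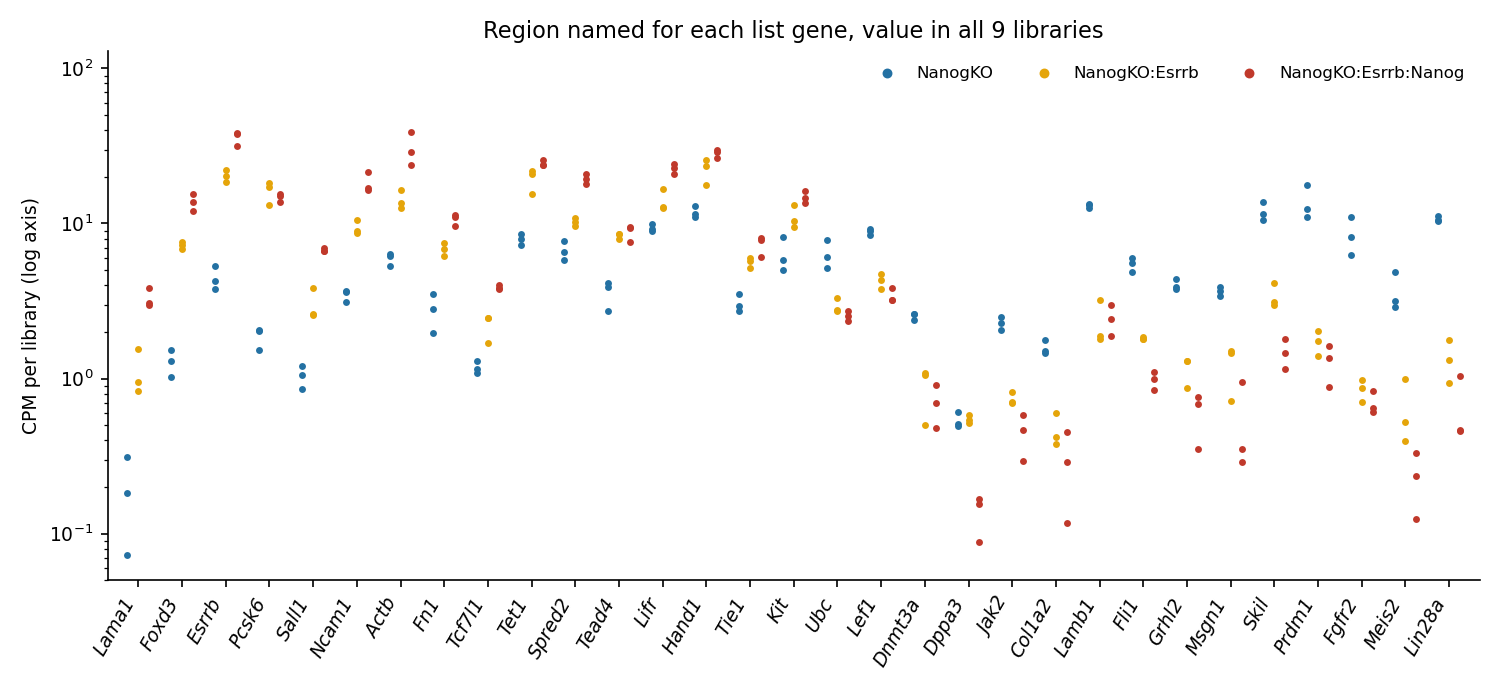
CPM (log axis) of the region named for each list gene in every library: blue NanogKO, yellow NanogKO:Esrrb, red NanogKO:Esrrb:Nanog, 3 points a group. Genes run from the largest rise, Lama1, to the largest fall, Lin28a, and the blue and red points do not overlap at any of the 31 regions. The size of the Lama1 rise rests on NanogKO counts of 3, 17 and 9. Each region was chosen for the smallest p at its gene, so this separation is no separate support.

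Starts of cell type markers were read beside the ESC label. Starts of markers of other cell types were open as well, so open starts alone cannot check that label. Of 8 ESC markers, 5 had a tabulated start and 4 a region there. Sox2, Zfp42, Tdgf1 and Utf1 had accessible starts in both groups, with a summed level of 91.4 to 103 CPM in NanogKO and 120 to 137 in NanogKO:Esrrb:Nanog, and the first 3 were called higher (Sox2 0.38 ± 0.12, Zfp42 0.75 ± 0.13, Tdgf1 1.16 ± 0.17). No region lay at the tabulated Pou5f1 start. Of the primitive endoderm markers with a tabulated start, only Dab2 had a region there, at 19.2 ± 1.7 and 18.2 ± 2.5 CPM. Neural starts summed to 45.9 to 53.3 CPM in NanogKO and 57.5 to 78.4 in NanogKO:Esrrb:Nanog, with Sox1 (0.84 ± 0.16) and Tubb3 (0.81 ± 0.13) higher and Pax6 (-0.81 ± 0.14) lower. Endothelium and blood starts summed to 80.6 to 92.4 and 81.3 to 89.5 CPM, trophoblast starts to 50 to 59.8 and 44.5 to 49.2, and fibroblast starts to 13.4 to 14 and 11.6 to 14.7. Col1a2 (-0.59 ± 0.18) and Plet1 (-0.46 ± 0.16) were the calls among these. Plet1 was lost without NanogKO replicate 3 or without NanogKO:Esrrb:Nanog replicate 2. The part of other cell types in the list results was not tested.

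Single genes could hold many regions that moved one way. Among 13580 genes with at least 3 tested regions, 2843 had calls only upwards, 2990 only downwards, 6864 in both directions and 883 none. Msi2, an RNA-binding protein, had 91 higher and 3 lower of 113 regions, with a median log2 fold change of 0.93. Its strongest region (chr11:88658971-88659418) was at 1.95, 2.33 and 1.99 CPM in NanogKO and at 15.2, 16.8 and 16.7 in NanogKO:Esrrb:Nanog. The ephrin receptor gene Epha4 had 39 higher and 1 lower of 45 with a median of 1.54, and Ntn1, which encodes the guidance cue netrin-1, 40 and 2 of 52 with a median of 1.19. Inside Ntn1 (chr11:68352319-68352475), NanogKO had 0.488, 0.569 and 0.669 CPM and NanogKO:Esrrb:Nanog 7.38, 7.07 and 7.11, a 12.4-fold rise. The E3 ligase gene Rnf220 had 36 higher and 1 lower of 49 with a median of 0.9. Gse1 was more mixed, with 48 and 6 of 105, a median of 0.41 and single regions from -3.39 to 2.65.

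Falls prevailed at 5 other genes. Maml2, a co-activator of NOTCH, had 1 higher and 25 lower of 30 with a median of -1.18. At chr9:13616371-13617275 it fell from 5.8, 6.08 and 6.26 CPM to 0.643, 0.499 and 0.968. The synaptic scaffold gene Dlg2 had 1 higher and 25 lower of 37, the teneurin gene Tenm2 4 and 26 of 42, and Nav2 11 and 33 of 73. Their medians were -0.82, -0.71 and -0.42. At chr11:36697614-36698479 in Tenm2, 4.9, 6.03 and 4.76 CPM in NanogKO compared with 0.581, 0.469 and 0.571. Sfi1 had 2 higher and 27 lower of 34. One Sfi1 region (chr11:3145870-3146530) had 211, 190 and 172 CPM in NanogKO and 36.5, 38.3 and 53.5 in NanogKO:Esrrb:Nanog, far above other named regions. Whether near-identical copies of the sequence share reads there was not tested, and the sources used here do not say how reads that map to several places were handled.

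**Figure D4:**
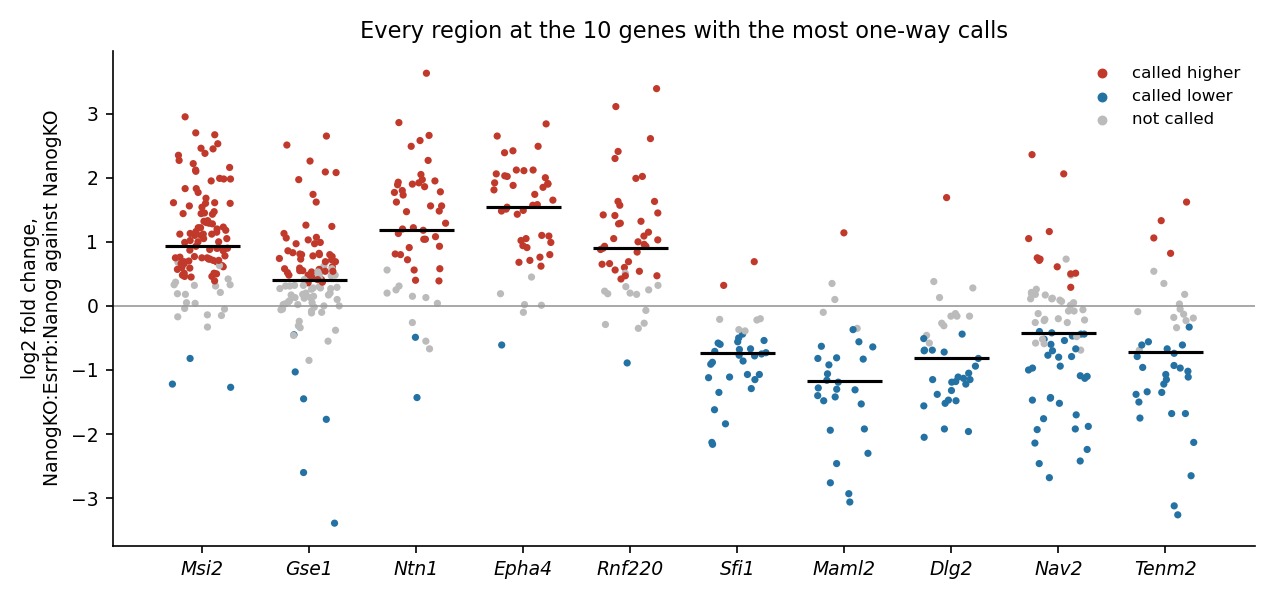
Log2 fold change of every tested region in or within 50 kb of the 10 genes with the largest excess of calls in 1 direction, in red where called higher, blue where called lower and grey where not called, with horizontal bars at the median. Points of Epha4 centre on 1.54 and those of Maml2 on -1.18, and every one of the 10 genes holds at least 1 call against its main direction.

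Calls in the same direction also ran along chromosomes. Of 27409 neighbouring pairs within 10 kb in which both regions were called, 20171 (73.6%) went the same way. Rises formed 793 unbroken runs of at least 5 regions and falls 659. The longest run of rises held 25 regions over 173.8 kb, with 5 of them within genes (chr4:101825031-101998832, median 1.51). Its nearest genes included Pramel17, Pramel18 and Pramel19, and whether related copies share reads there was not tested. The next held 24 regions at Ak4 and Dnajc6 (chr4:101400290-101532176, median 1.28), and the third 20 regions at Ccdc60 and Hspb8 (chr5:116311389-116416178, median 1.47), a length that runs near Trim24 and Tgfbr2 shared. Falls ran longest over 23 regions and 607.9 kb from Lrrk2 to Cntn1 (chr15:91736926-92344790, median -1.17). A run of 14 falls lay at Maml2 and Mtmr2 (chr9:13590211-13749838, median -1.1), a length shared by a run at Greb1l. The medians of NanogKO:Esrrb against the same NanogKO libraries were 1.68, 1.43 and 1.33 in the 3 runs of rises, and -0.77 and -0.63 in the runs of falls at Lrrk2 and at Maml2.

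In windows of 1 Mb the medians were mostly small, from -0.49 to 0.22 between the 10th and 90th percentile of 2347 windows. Only 5 windows had a median above 1 and 13 one below -1. The highest lay at Rbms3, Tgfbr2 and Gadl1 (chr9:116000001-117000000, 45 higher and 3 lower of 61, median 1.14), at Diaph2 (chrX:130000001-131000000, 8 and 1 of 12, median 1.14) and at Epha4 (chr1:77000001-78000000, 50 and 8 of 75, median 1.1). The lowest lay at Grb14 and Fign (chr2:64000001-65000000, 0 and 12 of 15, median -1.53), in a window on chromosome 16 (chr16:82000001-83000000, 0 and 9 of 12, median -1.45) and at Dsel (chr1:111000001-112000000, 0 and 10 of 14, median -1.25).

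Whole chromosomes shifted little. Their medians ran from -0.12 on chromosome X, where 18.3% of 3323 regions were higher and 28.9% lower, to 0.08 on chromosome 4, where 29.6% of 10613 were higher and 20.5% lower. Without chromosome X, 38540 regions were higher and 37434 lower.

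**Figure D5:**
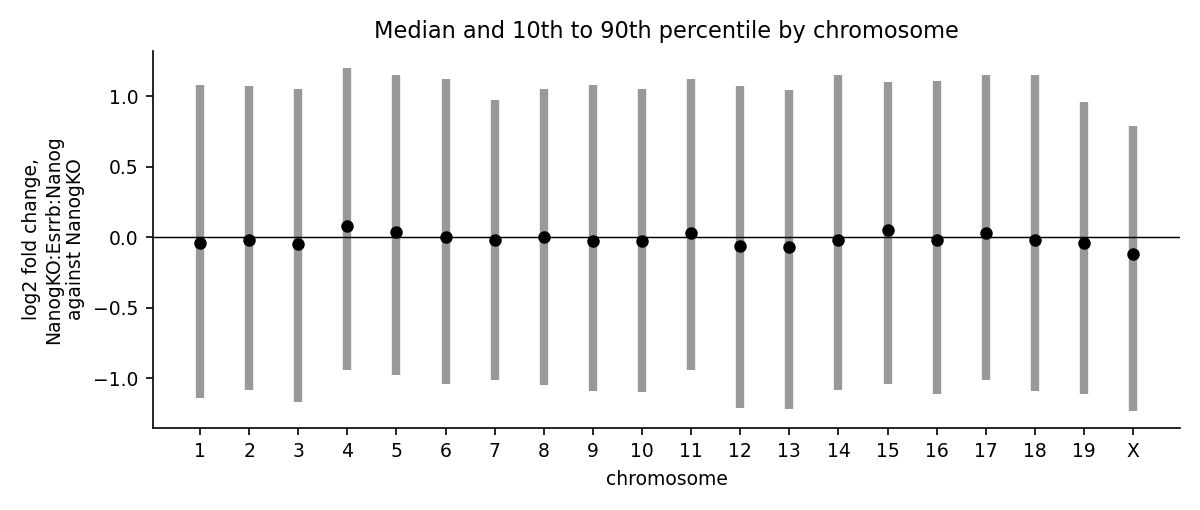
Median log2 fold change of the tested regions of each chromosome (point) with the 10th to 90th percentile (bar). Medians lie between -0.12 (X) and 0.08 (4), while each bar spans both directions.

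The deposited peak lists, 1 for each group, split the regions much as the counts did, which is a description because lists and counts share libraries. Regions under a peak in the NanogKO list only were called lower in 71.2% of 16057 cases, and those in both other lists were called higher in 69.1% of 16071. Regions in the NanogKO:Esrrb:Nanog list only were called higher in 49.9% of 9111, and 87109 regions in all 3 lists had 24.0% higher and 19.7% lower, a balance that turned with scaling to total counts (16999 higher, 22288 lower). Peaks of the NanogKO:Esrrb:Nanog list have names with the number of a NanogKO:Esrrb library, so which libraries it was called on is uncertain, while the counts do not depend on it. The split also depended on the overlap required, with 13326 higher and 5328 lower regions in all 3 lists where peaks had to cover at least 50% of a region, against 20941 and 17181.

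Counts down at the detection floor were rare. A region was at or under 3 counts over a whole group in 6 cases, all in NanogKO:Esrrb:Nanog. In Trim67, a 30 bp region (chr8:124801001-124801030) had 23, 24 and 19 counts in NanogKO and 0 in each NanogKO:Esrrb:Nanog library, at least 21.3-fold lower if the floor is set at 3 counts in the group. Near Rlim, a ubiquitin ligase gene of chromosome X, a region (chrX:104015202-104015303) had 57, 84 and 54 counts against 0, 0 and 2. One in Dnah5 (chr15:28341706-28341711) had 55 counts over NanogKO and 2 over NanogKO:Esrrb:Nanog, and one 84338 bp from Myof 30 and 3. The last 2, 301543 and 300816 bp from Bcor on chromosome X, had 608 and 401 counts over NanogKO and 0 in NanogKO:Esrrb:Nanog, at least 196-fold and 129-fold lower, and were at 0 in NanogKO:Esrrb as well. Whether their sequence is present in cells of the line name shared by those groups was not tested. Floors and counts cover counting error only.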

How the data were processed

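ATAC-seq counts of 9 libraries were used, with 3 per group and groups taken from the sample titles. The count table deposited by the authors gives whole, unnormalized read counts for every region. Each peak in the deposited lists, 1 per group, has a score from the authors' caller, 13 or higher, which was not used. Per the submitters' processing notes the build is mm10, and the tools were MACS2 2.2.0, bedtools 2.26.0, deepTools 4.4.0, SAMtools 1.4.1, Bowtie2, cutadapt and bcl2fastq 2.19.1, with no roles stated. Counting, duplicate removal, the shift of reads for the transposase and mapping filters are not given in the sources used here, and duplicates or multiply mapped reads would raise counts in repeated sequence. Starts are printed counted from 1.

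All 157497 regions and 9 libraries entered 1 fit of group means in edgeR 4.0.16 (R 4.3.3) with TMM factors, filterByExpr and the quasi-likelihood F test (6 residual degrees of freedom). Adjustment was Benjamini-Hochberg over all tested regions at 0.05, and the 45 regions of chromosome Y were dropped afterwards. Principal components used log2 CPM with a prior count of 2. On simulated counts over 157088 regions for this comparison, the test recovered 13% of 100 regions changed 1.5-fold and 56% of 100 changed 2-fold, with 10 false calls.

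Regions belong to the nearest protein-coding gene of RefSeq GRCm38.p6 by its span, within 50 kb for the 16 lists (292 entries, 269 genes, 23 in more than 1 list, 2 entries with no region). A gene end otherwise is within 1 kb. Starts come from RefSeq's table for 17492 of 21900 protein-coding genes. The comparison, the lists and the rules were chosen with earlier results of these data known. The rules name, per list, the genes with the largest excess of calls in each direction and their region of smallest p, the 5 such genes each way over all genes, the 5 largest rises and falls at starts, the 3 longest runs and extreme windows, all regions within 10 kb of Nanog and Esrrb, and marker starts. One run that the rules name is not reported here. Regions of 1 gene are not independent of each other.

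Libraries with the same replicate number deviated together at 0.136, 0.00214 and 0.0393 (Pearson r), and those with different numbers at -0.0909 to 0.0442. The labels do not state that the numbers mark a shared culture, so they were not taken to pair the groups. No 2 libraries of a group were copies (chi-square per region 3.811 to 9.487 within the groups compared). The alternatives were 4 other scalings, DESeq2 1.42.0, 2 other filters, a fit of 6 libraries, a replicate block, leaving out each library, other distances and overlaps, and 2 added after seeing the data (the naive list without Esrrb and Nanog, and counts without chromosome X).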

Additional observations from a re-analysis of the deposited data

How the results depend on the processing

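Counts of all higher and lower regions, and of those past 2-fold, stayed within 1.5 times of the main values under every alternative fit run. Higher regions numbered 33109 with scaling to total counts, where the median of all regions was -0.1 and 42.2% of calls were higher, and 40252 without NanogKO:Esrrb:Nanog replicate 3. With the replicate block, 41567 were higher and 40904 lower. Whether same-numbered libraries share a culture or batch is not stated and was not settled by the check above. This block was not used further. The 31 regions named for lists, the 10 at single genes and the 10 at starts kept their call and direction under all alternatives that gave them a value. They had been chosen for the smallest p, or at starts for the largest change without overlap. Keeping the call was therefore largely set by the choice and is no separate support. Sizes moved more: without NanogKO:Esrrb:Nanog replicate 3, fold changes of the list regions differed by up to 1.75 times, at Msgn1. Among Esrrb and marker regions, 16 values gained and 10 lost the threshold. No direction reversed, and the causes below were not tested.

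Scaling to total counts gave 15.7% higher and 29.1% lower neural regions, 2007 lower starts, 63 higher regions in the NanogKO and NanogKO:Esrrb peak lists and 175 lower in both other lists. TMM on regions near gene ends gave 68 for the first of these. Loess scaling gave 2427 lower starts, 3141 higher and 764 lower in the NanogKO:Esrrb list only, 95 lower in the NanogKO:Esrrb:Nanog list only and 72 lower in the lists of NanogKO:Esrrb and NanogKO:Esrrb:Nanog. With a mean count of 50 or more, which tests fewer regions, 6146 were lower in the NanogKO list only, 1026 higher and 557 lower in the NanogKO:Esrrb list only, and 2415 higher in the NanogKO:Esrrb:Nanog list only.

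Leaving out each library in turn gave 14.8% to 20.4% higher and 14.3% to 21.7% lower for neural regions, 30.6% to 36.2% higher for DNA methylation, 38.1% to 46.5% higher for Nodal and BMP, and 1287 to 3324 higher starts. Among peak lists it gave 61 to 160 higher in NanogKO and NanogKO:Esrrb, 854 to 2099 lower in NanogKO:Esrrb only, 90 to 149 lower in NanogKO:Esrrb:Nanog only, and 69 to 116 lower in NanogKO:Esrrb and NanogKO:Esrrb:Nanog.

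At 10 kb, 7.01% of LIF and STAT3 regions were lower and 17.1% of trophoblast regions higher. At 100 kb, 19.6% of core pluripotency regions were lower. With gene ends set at 5 kb, 8177 were higher and 7018 lower there. With peaks covering at least 50% of a region, counts were 252 higher in the NanogKO list only, 8115 higher and 2297 lower in the NanogKO:Esrrb list only, 4050 higher and 16466 lower in NanogKO and NanogKO:Esrrb, 476 lower in NanogKO and NanogKO:Esrrb:Nanog, 49 lower in NanogKO:Esrrb and NanogKO:Esrrb:Nanog, and 13326 higher and 5328 lower in all 3. Of simulated 1.5-fold changes, 13% were recovered, with 100 regions changed at each fold among 157088. In the data 49.3% of regions were called, which moves the adjusted threshold. The simulated share therefore does not give the share of small changes missed here.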

Other observations

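Runs of 13 falls and of 19 rises, shorter than those given above, were chosen after their values were seen, and all of each length are given. Runs of 13 falls numbered 4. At Peg3 and Usp29, paternally expressed neighbours on chromosome 7, 13 regions in a row over 135.1 kb fell (chr7:6727232-6862331), with log2 fold changes from -3.37 to -0.38 and a median of -1.62. The others lay at Arhgap10 (chr8:77367208-77512386, median -1.39), near Syne1, Myct1 and Vip (chr10:5555104-5797428, median -0.87), and past Cldn8 and keratin-associated genes (chr16:88562974-89010865, median -1.21). Runs of 19 rises numbered 5, at Aff1 (chr5:103679108-103753389, median 1.56), in Ntn1 (chr11:68300522-68361938, median 1.62), near LOC108167368 (chr12:20684322-20888320, median 1.99), at Esrrb (chr12:86463234-86547025, median 1.68) and at Lrrc30 and Lama1 (chr17:67629155-67816747, median 1.24).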
